A study of Saccharomyces cerevisiae with 38 samples.

Results

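Ribosome biogenesis factors are the proteins that cut, modify, fold and export ribosomal RNA precursors in the nucleolus and nucleus. Here 60 of their genes, named one by one as processing factors, helicases and export factors, were followed in the budding yeast Saccharomyces cerevisiae. No measured value entered the rule, but the list was chosen with earlier results of these data known. All 60 symbols were found by the arrays' annotation among the 5548 named genes of the arrays, each with a single spot, and 55 had a value on all 38 arrays. By role they comprise 3 box C/D and 3 box H/ACA snoRNP protein genes, 21 small subunit factors, 11 RNA helicases, and 22 large subunit assembly and export factors. The study set polyA RNA of a test strain against that of a wild-type (WT) reference strain in the other dye on glass arrays of amplified yeast DNA. The strains were ts2 (6 arrays), the double mutants elp3 ts2, esa1 ts2, gcn5 ts2, hat1 ts2, hpa2 ts2 and sas3 ts2 (2 arrays each), the single mutants elp3, esa1, gcn5, hat1, hpa2 and sas3 (2 arrays each), and WT against WT (8 arrays). The gene named by the series for ts2 is TAF1, which codes for a scaffold subunit of TFIID and is mutated here to a temperature-sensitive form, and the other 6 mutations lie in genes of histone acetyltransferases (HATs), enzymes that acetylate histones. The labels do not say what kind of allele each HAT mutation is, and ESA1 is an essential gene. All cultures, WT included, were grown in medium without histidine to an optical density of about 0.8 and then held at 37 °C for 45 min, so no group shows the state before the heat shift.

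Ribosome synthesis starts in the nucleolus with a long precursor RNA. Small nucleolar RNPs of the box C/D class guide its 2′-O-methylation and those of the box H/ACA class its pseudouridylation. The small subunit processome, which contains most of the UTP proteins, assembles on the nascent precursor, helicases remodel it, and further factors build the large subunit and pass it to the nuclear pore. In yeast the genes of these factors are known to be regulated together by growth and stress signals.

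All values are log2 ratios of test strain over WT reference relative to the median of all spots of the same array, with or without a gene name. A log2 change of -1 is thus a ratio 2-fold lower than that of the median spot. The median deposited ratio of an array was 0.329 to 2.42, and the deposited scale without centring was run as an alternative. A change against WT is the mean of a group's ratios, so it is set against the WT RNA in the other channel of the same arrays, and the WT against WT arrays enter only through the spread and the dye term. Because those WT arrays did not average 0 in every gene, each change was also computed against their mean, an alternative chosen after seeing the data, given below as counts and beside the named calls that it ended. GCN5 and HAT1 were low on the 4 arrays labelled with their mutation (-3.42 to -2.21 and -3.89 to -2.69) and at -0.42 to 0.53 and -1.07 to 1.0 on the other 34. SAS3, ELP3 and HPA2 overlapped between the arrays labelled with their mutations and the rest and do not check those labels, and TAF1 and ESA1 are essential genes whose RNA level is no such check. One array titled hpa2 ts2 (array A) carries the strain number of elp3 and was kept under its title. The slides were numbered in 4 runs, and the arrays of ts2 lay in runs 2, 3 and 4 only. A lower ratio in bulk RNA cannot separate less RNA per cell from fewer cells that make it. No label states that a group's arrays hold RNA of separate cultures, and p-values then measure the spread between arrays, which may be technical.

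In ts2 the ribosome biogenesis factor genes were mostly lower than in WT. The median of the 60 genes lay at -0.63 to -0.43 on the 6 ts2 arrays and at -0.05 to 0.10 on the 8 WT arrays, with no overlap. On each ts2 array 48 to 56 of the genes lay below 0, against 19 to 36 on each WT array. By limma's moderated test, 44 of 60 genes fell and 4 rose (adjusted p under 0.05, adjusted over all genes tested), while 34.5% of all 5546 genes tested fell and 30.3% rose. The median log2 change was -0.51 over the 60 genes and -0.01 over all genes. For 29 of the 58 genes with all 14 values, every ts2 array lay below every WT array, which held for 16.2% of all genes with all values. Of the 44 falls, 12 were at least 2-fold, and the falls ran from -1.86 to -0.16 with a median of -0.69. How many of all genes fell at least 2-fold was not counted. Of the 48 members called in either direction, 40 stayed called whichever array was left out. Without centring, where the shift of each whole array stays in the values, 43 genes fell and 1 rose. The share of all genes on that scale is not given here. Against the mean of the WT arrays 40 fell and 2 rose (30.4% and 25.7% of all genes), all of them called in the same direction against the WT reference, with a median of -0.55. The 6 calls lost there were those of UTP13, UTP15, NOP12, NOP15, NOG1 and SSF1 (adjusted p = 0.06 to 0.34).

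**Figure D1:**
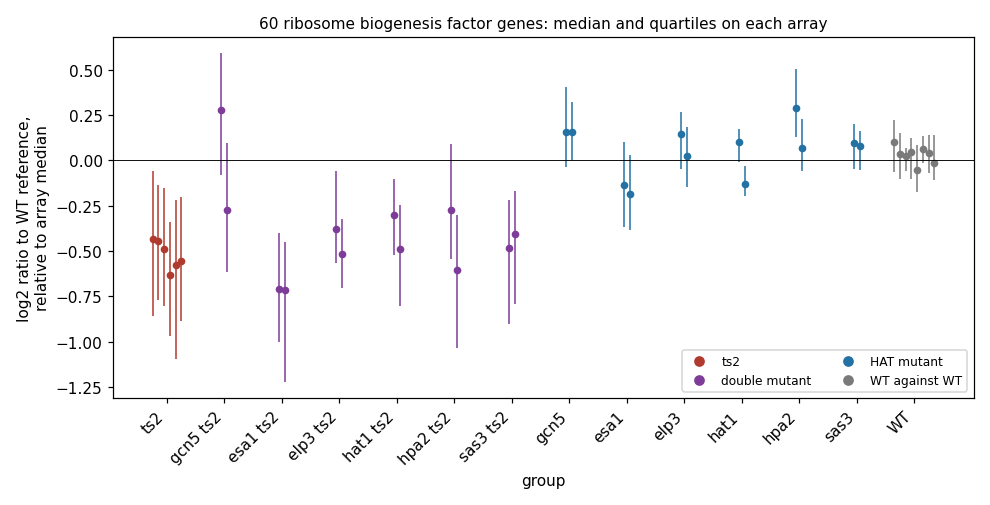
Median (dot) and quartiles (line) of the 60 ribosome biogenesis factor genes on each of the 38 arrays, as log2 ratio to the WT reference relative to the array median, by group. The arrays of ts2 and of all double mutants but gcn5 ts2 have medians of -0.71 to -0.27, those without ts2 have -0.19 to 0.29, and the 2 gcn5 ts2 arrays have 0.28 and -0.28.

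The box C/D proteins build the methylation RNPs, with NOP1 (fibrillarin) as the methyltransferase and NOP56 and NOP58 as core proteins. All 3 genes fell in ts2. NOP58 lay at -0.46, -0.65, -0.61, -0.71, -1.0 and -0.88 on the ts2 arrays, against -0.18 to 0.14 on the WT arrays, and fell by 0.72 (SE 0.06, adjusted p = 6.6e-11). The ranges of NOP58 did not overlap. NOP1 fell by 0.69 (SE 0.14) and its ranges did overlap, with -1.09 to -0.17 in ts2 against -0.62 to 0.39 in WT. NOP56 fell by 0.52 (SE 0.20, adjusted p = 0.024), and this call was lost without ts2 array A, D or F. Against the mean of the WT arrays, of which array E lay at 1.83, NOP56 was lower by 0.80 (SE 0.26, adjusted p = 0.0097).

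The box H/ACA proteins build the pseudouridylation RNPs, with CBF5 as the pseudouridine synthase and GAR1 and NHP2 as partners in the complex. All 3 genes fell in ts2, with a median change of -1.11. GAR1 lay at -1.31, -1.23, -1.0, -1.64, -1.25 and -0.96 in ts2, against -0.26 to 0.33 in WT, and fell by 1.23 (SE 0.09, adjusted p = 8.8e-13). NHP2 lay at -1.11, -0.98, -0.86, -1.26, -1.77 and -0.68 in ts2, against -0.38 to 0.40 in WT, and fell by 1.11 (SE 0.10, adjusted p = 1.1e-10). CBF5 lay at -0.99 to -0.69 in ts2, against -0.34 to 0.34 in WT, and fell by 0.82 (SE 0.07, adjusted p = 1.3e-10). None of the 3 genes had overlapping ranges.

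The small subunit factors were mixed. Of 21 genes 11 fell, 2 rose and 8 did not pass, with a median change of -0.17. KRR1, which is needed for processing of the small subunit RNA, lay at -1.81, -1.37, -1.32, -1.68, -1.59 and -1.25 in ts2, against -0.48 to 0.22 in WT, and fell by 1.5 (SE 0.10, adjusted p = 1.9e-13). UTP20, a large component of the processome, lay at -1.5, -1.15, -1.41, -0.95, -1.06 and -1.13 in ts2, against -0.34 to 0.23 in WT, and fell by 1.20 (SE 0.07, adjusted p = 5.6e-14). RRP5, which acts in the cleavages that part the precursors of both subunits, lay at -1.16, -0.99, -1.01, -0.94, -1.14 and -1.14 in ts2, against -0.27 to 0.16 in WT, and fell by 1.06 (SE 0.07, adjusted p = 2e-13). In all 3 genes each ts2 array lay below each WT array.

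The proteins of the t-UTP subcomplex, which joins the precursor first, were measured by UTP4, UTP5, UTP8, UTP9, UTP10 and UTP15. UTP4 fell by 0.86 (SE 0.06) and UTP10 by 0.80 (SE 0.06), with no overlap with WT in either. UTP5, UTP8 and UTP9 fell by 0.26, 0.35 and 0.35, and UTP15 rose by 0.18 (SE 0.07, adjusted p = 0.019). The call of UTP15 was lost without ts2 array A or E, it turned to -0.16 on the deposited scale, and against the mean of the WT arrays it was 0.10 (adjusted p = 0.341). Against the same mean UTP5 was lower by 0.41 (SE 0.11). The 6 genes of this subcomplex had changes from -0.86 to 0.18.

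Of the other processome genes, UTP21 fell by 0.52 and UTP13 by 0.16, while UTP18, another protein of the UTP-B subcomplex, lay at -0.05 ± 0.08 (SE) and UTP6, also of UTP-B, at 0.01 ± 0.07. UTP7 fell by 0.44, with no overlap. The genes that did not pass were UTP6, UTP18, UTP22, NOP14, NOC4, RRP9, RRP12 and NSR1, with fitted changes of -0.17 to 0.25. RRP9, a component of the U3 snoRNP, lay at -0.21 to 0.35 in ts2 and at -0.14 to 0.16 in WT. NOP14 lay at -0.49 to 0.08 on 5 ts2 arrays and at 3.21 on array F, against -0.27 to 0.24 in WT, so that its fitted change of 0.25 (SE 0.26) rests on that array.

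BMS1, a GTPase of the processome, was the other small subunit gene called higher (0.88 ± 0.30 SE, adjusted p = 0.013). Its ts2 arrays fell into separate levels, with -0.82 and -0.36 on arrays A and D of slide run 2, and 1.68, 1.90, 1.48 and 1.41 on the arrays of runs 3 and 4. The WT arrays lay at -1.81 and 0.09 in run 1, -1.12 and 0.20 in run 2, 0.15 and 0.11 in run 3 and -0.25 and -0.49 in run 4. Against the WT reference the mean of the ts2 arrays was -0.59 in run 2, 1.79 in run 3 and 1.44 in run 4. Against the mean of the WT arrays BMS1 was higher by 1.27 (SE 0.39, adjusted p = 0.0073), and with run as a block, which sets ts2 against the WT arrays of its runs, by 1.16 (adjusted p = 0.0067). The call was lost without ts2 array B, C or E and on the deposited scale (0.54, adjusted p = 0.133).

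Among the helicase genes 8 of 11 fell and 1 rose, with a median of -0.51. DBP2, a DEAD-box helicase that acts in ribosomal RNA processing and mRNA decay, varied widely between arrays. It lay at -0.90, -2.17, -0.79, -1.66, -1.75 and -2.12 in ts2, against -0.40 to 0.40 in WT, and fell by 1.57 (SE 0.13, adjusted p = 2.9e-11). DRS1, a helicase of large subunit assembly, lay at -1.27 to -0.86 in ts2, against -0.32 to 0.18 in WT, and fell by 1.06 (SE 0.11). ROK1, a helicase of the small subunit pathway, lay at -1.32 to -0.66 in ts2, against -0.10 to 0.18 in WT, and fell by 0.99 (SE 0.09). In these 3 genes no ts2 array reached the lowest WT array.

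HAS1, DBP9, DBP10, DBP8 and DBP7 fell by 0.61, 0.58, 0.51, 0.50 and 0.22, and against the mean of the WT arrays DBP7 was lower by 0.36 (SE 0.09). DBP6 (-0.17 ± 0.09 SE) and DBP3 (-0.13 ± 0.15) did not pass. DBP3 differed between slide runs like BMS1, with -0.96 and -1.17 on the ts2 arrays of run 2 and 0.14, 0.30, 0.32 and 0.62 on those of runs 3 and 4, against -0.21 to 0.20 in WT.

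MAK5, a DEAD-box helicase of large subunit assembly, was the exception among the 60 genes, since it alone had every ts2 array above every WT array (13% of all genes with all values did). It lay at 1.75, 1.39, 1.25, 1.0, 1.45 and 1.20 in ts2, against -0.14 to 0.16 in WT, and rose by 1.34 (SE 0.07, adjusted p = 8.7e-16). The mean of its ts2 arrays was 1.38, 1.42 and 1.22 in slide runs 2, 3 and 4, and its change was 1.35 against the mean of the WT arrays and 1.0 on the deposited scale. Of its neighbours on the chromosome, BMT2 lay at 0.32 ± 0.49 (SE) in ts2 and SUP45 fell by 0.70 (SE 0.06).

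The large subunit factors were lower almost throughout, with 19 of 22 genes down, 1 up and a median of -0.62. REA1 (midasin), the giant ATPase that strips assembly factors from the precursor of the large subunit, had the largest fall of all 60 genes. It lay at -2.15, -1.78, -1.69, -1.62, -1.80 and -2.13 in ts2, against -0.46 to 0.22 in WT, and fell by 1.86 (SE 0.10, adjusted p = 1.3e-15). SDA1, which is needed for maturation and export of that precursor, lay at -0.98, -1.24, -1.15, -1.35, -1.22 and -1.32 in ts2, against -0.10 to 0.17 in WT, and fell by 1.21 (SE 0.08, adjusted p = 1e-13). NOP7 (the yeast pescadillo protein) lay at -1.63 to -0.63 in ts2, against -0.09 to 0.31 in WT, and fell by 1.25 (SE 0.11, adjusted p = 1.9e-10). All 3 were separated from WT on every array.

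ERB1, the partner of NOP7 in a trimeric complex, lay at -0.88 to -0.65 in ts2, against -0.06 to 0.19 in WT, and fell by 0.74 (SE 0.18). The NOC2 and MAK21 (NOC1) proteins form a complex on early large subunit precursors, and NOC2 and NOC3 form a later one. Their genes fell by 0.70 (SE 0.06) for NOC2, 1.11 (SE 0.09) for MAK21 and 0.64 (SE 0.08) for NOC3, all with no overlap. NOP13 fell by 1.09 (SE 0.08) and MAK16, with 5 of 6 ts2 arrays measured, by 0.74 (SE 0.08).

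Falls were also called for EBP2 (-0.71), the GTPase genes NOG1 (-0.70) and NOG2 (-0.54), BRX1 (-0.49), NOP8 (-0.49), RRP15 (-0.45), NOP16 (-0.43), NOP15 (-0.41), SSF1 (-0.31) and the ribosomal RNA methyltransferase gene NOP2 (-0.27). SSF1 has a near-identical copy, SSF2, whose RNA its spot could also bind, and its call was lost without ts2 array C, D or E. NOP12 was called higher by 0.20 (SE 0.07), with 0.03 to 0.33 in ts2 and -0.31 to 0.36 in WT, and its change was -0.14 on the deposited scale and 0.12 (adjusted p = 0.256) against the mean of the WT arrays. NOP53 and NOP4 did not pass (-0.24 ± 0.16 and -0.59 ± 0.32 SE). NOP4 had a single low ts2 array at -2.36 and a low WT array at -1.55.

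**Figure D2:**
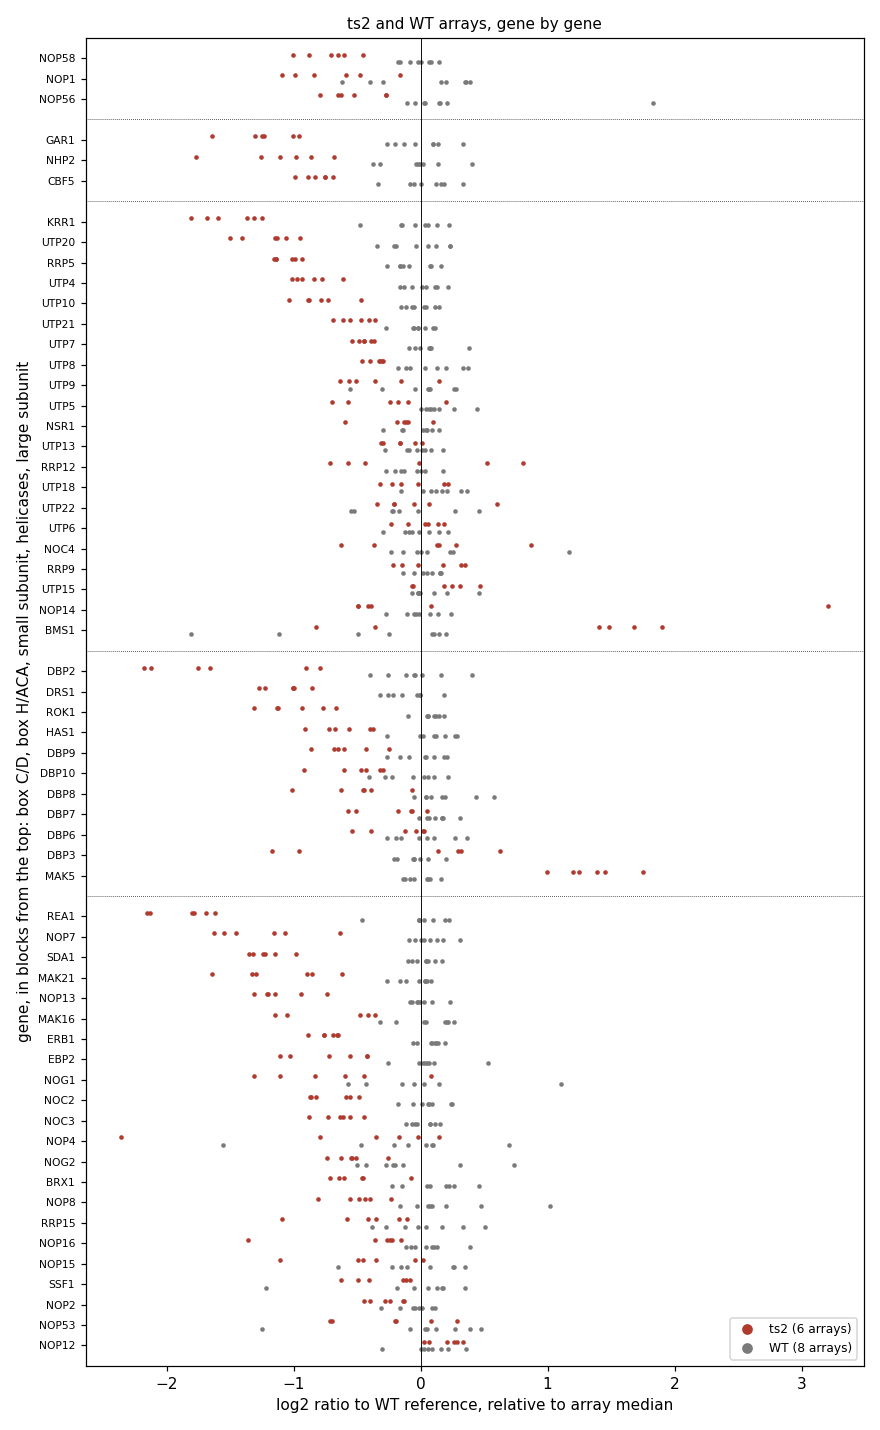
Log2 ratio to the WT reference, relative to the array median, of each of the 60 genes (rows, in role blocks and ordered by their change) on the 6 ts2 arrays and the 8 WT arrays. In 29 of the 58 genes with all values all ts2 points lie left of all WT points, as do those of MAK16, which lacks a ts2 value. MAK5 has all ts2 points, from 1.0 to 1.75, right of all WT points.

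A further 156 genes of the pathway, in 6 lists by function, gave 98 lower and 12 higher in ts2, with a median of -0.39, beside 34.5% lower and 30.3% higher of all genes. Other large subunit factors had 36 of 41 lower and 2 higher, other small subunit factors 24 of 34 lower and 0 higher, and late maturation and export factors 20 of 24 lower and 1 higher. The largest falls among them were those of NOP6 (-1.43 ± 0.08 SE), the late factor TSR3 (-1.28 ± 0.11) and the processome factor UTP23 (-1.21 ± 0.08). RNA polymerase I and its factors had 8 of 19 lower and 1 higher, with RPA190, the largest subunit of the polymerase, at -1.07 ± 0.07. The RNA exosome, the complex that trims and degrades precursor RNA, had 5 of 17 lower and 3 higher, and regulators of ribosome synthesis genes 5 of 21 lower and 5 higher.

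Genes next to the 60 on the chromosome and outside all these lists were also counted. Of 104 such neighbours tested, 22 fell in ts2 (21.2%) and 42 rose, and their median was 0.11. Among all genes tested 34.5% fell and 30.3% rose. Some of these neighbours are ribosomal protein genes. NOC4 and RRP15 are the members that neighbour each other, and RRP15 fell by 0.45 while NOC4 lay at 0.07 ± 0.21 (SE).

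The single HAT mutants asked whether a HAT mutation alone moved these genes at 37 °C. Array medians of the 60 genes ran from -0.19 to 0.29 on the 12 single mutant arrays. In esa1, 12 genes fell and 1 rose (12.8% and 16% of all genes tested), with a median of -0.16. In gcn5, 9 rose and none fell (9.02% and 9.09% of all genes), with a median of 0.17. The elp3 mutant had 1 call (0.506% of all genes) and hat1 had 1 (0.535%). None of the 60 was called in hpa2 (0.51% of all genes) or sas3 (0.109%), where 16 and 2 had an unadjusted limma p under 0.05. On the deposited scale no member was called in esa1, gcn5, hat1, hpa2 or sas3. Against the mean of the WT arrays esa1 had 12 lower and 1 higher (10.1% and 13.3% of all genes), without DRS1 (-0.41, adjusted p = 0.166) and with UTP18 (-0.42), and gcn5 had 5 higher (6.78%).

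KRR1 and RRP5 had the most stable falls in esa1, a mutant of the catalytic subunit of the NuA4 acetyltransferase. KRR1 lay at -0.87 and -0.92 in esa1, against -0.48 to 0.22 in WT, and fell by 0.90 (SE 0.17, adjusted p = 0.00022). RRP5 lay at -0.89 and -0.79 in esa1, against -0.27 to 0.16 in WT, and fell by 0.84 (SE 0.12, adjusted p = 6.6e-06). Neither gene overlapped WT, and both calls held without either esa1 array.

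DBP2 (-0.85), GAR1 (-0.62), DBP10 (-0.55), NOP13 (-0.53), DRS1 (-0.51), UTP13 (-0.46), UTP20 (-0.44), UTP4 (-0.41) and EBP2 (-0.38) also fell in esa1, and each of these calls was lost when at least 1 of the esa1 arrays was left out. NOP4 was called at -1.99, from arrays at -0.50 and -3.49. MAK5 rose by 0.64 (SE 0.12), with 0.78 and 0.50 in esa1, and its change was 0.22 (adjusted p = 0.766) on the deposited scale. Within slide run 3, which holds the esa1 arrays, 18 genes fell and 3 rose, and with run as a block 6 fell and 1 rose. The shares of all genes called in these fits are not given here, so the counts are not set against them.

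GCN5 is the acetyltransferase of the SAGA complex, and in gcn5 the 9 higher genes were DBP2 (0.81), NOP12 (0.57), DBP9 (0.50), BRX1 (0.48), NOP2 (0.42), RRP9 (0.41), SDA1 (0.39), UTP13 (0.37) and UTP15 (0.37). NOP12 lay at 0.64 and 0.49 in gcn5, against -0.31 to 0.36 in WT. None of these 9 calls held whichever array was left out: UTP13 and DBP9 were called without gcn5 array A, and NOP12 without array B. Against the mean of the WT arrays UTP15, RRP9, SDA1 and BRX1 did not pass (adjusted p = 0.0847 to 0.134). Within slide run 2, which holds the gcn5 arrays, 13 rose, and with run as a block none passed. These counts too are given without the share of all genes called in the same fit. The 3 box H/ACA genes lay at -0.28 to -0.10 in gcn5 and did not pass.

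BMS1 was the single call in elp3, at -3.49 and -3.32 in elp3, against -1.81 to 0.20 in WT (-3.40 ± 0.52 SE, adjusted p = 0.002). The WT array at -1.81 belongs to the same slide run, and within that run or with the run as a block the call was lost (adjusted p = 0.54 and 0.081). NOP12 was the single call in hat1, at -0.92 and -0.30 (-0.61 ± 0.12 SE, adjusted p = 0.013), and its call was lost without hat1 array A.

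**Figure D3:**
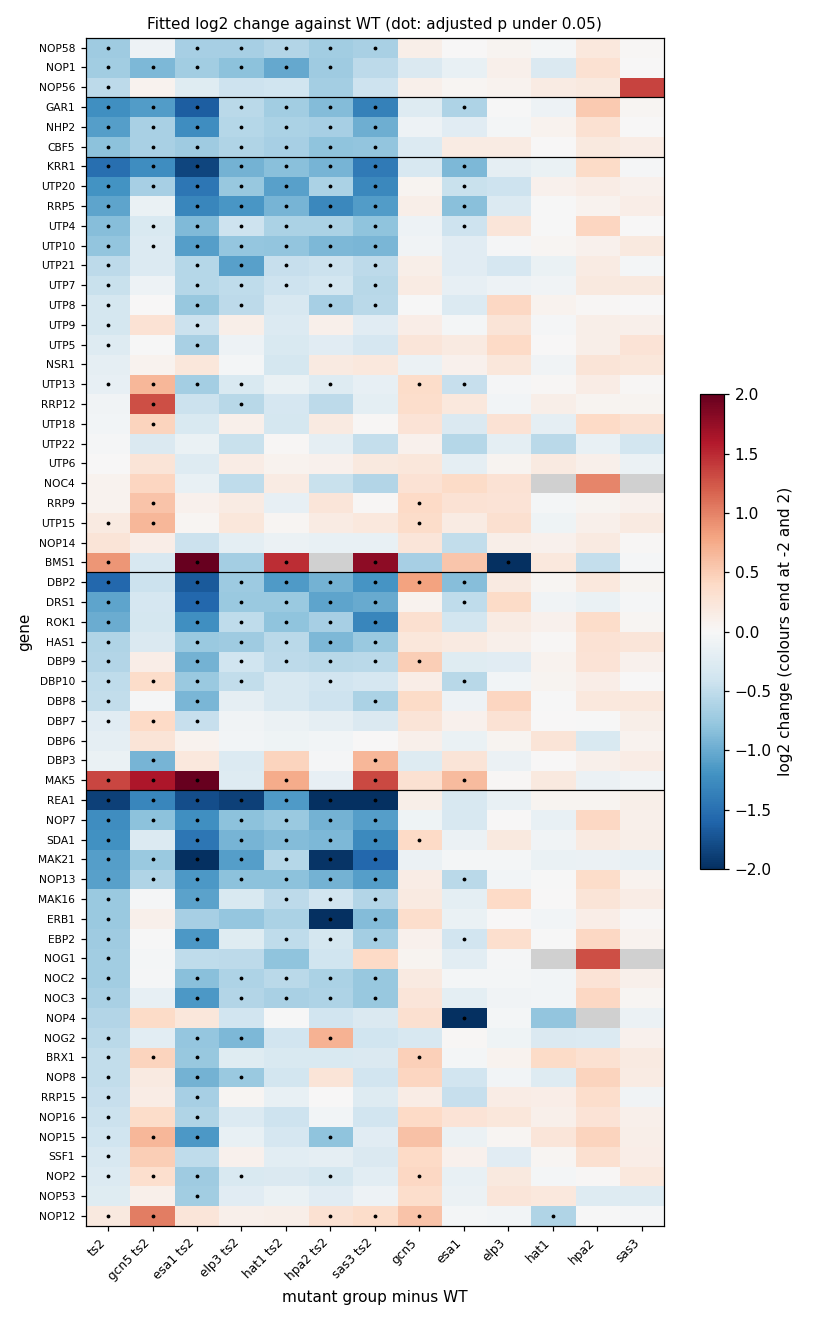
Fitted log2 change against the WT reference of each of the 60 genes (rows, in role blocks) in ts2, the 6 double mutants and the 6 HAT mutants (columns), with a dot where the limma adjusted p was under 0.05 and grey where a gene was not tested. The ts2 column and 5 double mutants are mostly blue (26 to 44 genes lower), gcn5 ts2 is mixed (13 lower and 12 higher), and the HAT columns are pale.

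Against the WT reference, more of these genes were lower than higher in 5 double mutants, while gcn5 ts2 had 13 lower and 12 higher. The comparisons share the WT reference with ts2, so their likeness is not independent. In esa1 ts2, 41 genes fell and 2 rose (30.3% and 25.6% of all genes), with a median of -0.71. In hpa2 ts2, 32 of 59 tested fell and 2 rose (24% and 20.8%), with a median of -0.42. In elp3 ts2, 31 fell and none rose (20.1% and 19.2%), with a median of -0.50. In sas3 ts2, 28 fell and 4 rose (25.5% and 22.1%), with a median of -0.50. In hat1 ts2, 26 fell and 2 rose (16.8% and 14.3%), with a median of -0.38. In gcn5 ts2, 13 fell and 12 rose (29.1% and 24.2%), with a median of -0.01. Without hpa2 ts2 array A, the array with the strain number of elp3, the hpa2 ts2 count was 30. Without hpa2 ts2 array B it was 18, and without 1 array elp3 ts2 and hat1 ts2 each had 15. On the deposited scale esa1 ts2 had 52 lower and 2 higher, gcn5 ts2 11 and 0, and sas3 ts2 8 and 1. There hpa2 ts2 had 3 lower, elp3 ts2 1 lower, and hat1 ts2 0 lower and 1 higher. The shift of each whole array stays in these counts, and the share of all genes is not given here. The median deposited ratios of the esa1 ts2 arrays were 0.733 and 0.347. Against the mean of the WT arrays esa1 ts2 had 40 lower and 2 higher (28.5% and 24.4% of all genes). Against that mean hpa2 ts2 had 31 and 1 (23% and 19.4%) and elp3 ts2 29 and 0 (18.9% and 17.4%). The counts were 32 and 2 in sas3 ts2 (23.9% and 20.7%) and 29 and 2 in hat1 ts2 (14.7% and 12.5%). In gcn5 ts2 they were 14 and 9 (27.5% and 22.2%).

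Across the 7 strains that carry ts2, 11 of the 60 genes fell in all of them, as did 8.78% of all genes tested in the 7. The 7 comparisons share the WT reference, and on the deposited scale no member was lower in hat1 ts2 and so none in all 7. The 11 were the 3 box H/ACA genes CBF5, GAR1 and NHP2, the small subunit factors UTP4, UTP10, UTP20 and KRR1, and the large subunit factors NOP7, NOP13, MAK21 and REA1. Against the mean of the WT arrays UTP10 was not called in gcn5 ts2 (-0.26, adjusted p = 0.0811), while HAS1 and ROK1 were. REA1 lay at -1.40 and -2.34 in elp3 ts2, -1.79 and -1.76 in esa1 ts2, -1.06 and -1.53 in gcn5 ts2, -0.80 and -1.46 in hat1 ts2, -2.04 and -2.78 in hpa2 ts2 and -2.08 and -2.03 in sas3 ts2, against -0.46 to 0.22 in WT. All 12 of these arrays lay below every WT array. Another 12 genes fell in the same strains except gcn5 ts2, namely NOP58, UTP7, UTP21, RRP5, DBP2, DBP9, DRS1, HAS1, ROK1, NOC2, NOC3 and SDA1, of which UTP21 was not called in hat1 ts2 and hpa2 ts2 against the mean of the WT arrays (adjusted p = 0.073 and 0.0661). The share of all genes with this pattern was not counted. Many members' calls against WT were lost when some array was left out. Those kept whichever array was left out were 13 of 31 in elp3 ts2, 34 of 43 in esa1 ts2 and 11 of 25 in gcn5 ts2. In hat1 ts2, hpa2 ts2 and sas3 ts2 they were 12 of 28, 15 of 34 and 22 of 32. At the other end 13 of the 60 genes (50.8% of all genes tested in the 7) fell in none of the 7, among them UTP15, UTP18, RRP9, NSR1, NOP12 and MAK5. UTP18 was called lower in esa1 ts2 (-0.44) and hat1 ts2 (-0.48) against the mean of the WT arrays.

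The gcn5 ts2 strain was set against ts2 directly, to ask what the gcn5 mutation added where TAF1 was already mutant. Of the 60 genes, 32 were higher in gcn5 ts2 than in ts2 and none lower, while 11% of all 5539 genes tested were higher and 11.7% lower. The median difference was 0.53, against 0.01 over all genes. In 27 of the 59 genes with all values, both gcn5 ts2 arrays lay above all 6 ts2 arrays, which held for 14.5% of all genes, and in 0 both lay below (16.3% of all genes). Of the 32 genes, 27 had fallen in ts2 against WT, as had 44 of all 60. Both comparisons use the same ts2 arrays with opposite sign, so this overlap is not independent.

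The arrays of gcn5 ts2 differed between themselves, with medians of the 60 genes at 0.28 on array A and -0.28 on array B, against -0.63 to -0.43 on the ts2 arrays. Without array A of gcn5 ts2 7 genes were called and the median was 0.32, and without array B 32 were called and the median was 0.72. On the deposited scale none was called, with a median of 0.31 against -0.21 over all genes. 

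Large subunit factors held 14 of the 32 higher genes, small subunit factors 11, helicases 6 and box C/D genes 1. BRX1, a large subunit assembly factor, lay at 0.65 and 0.24 in gcn5 ts2, against -0.71 to -0.08 in ts2 and 0.50 and 0.46 in gcn5. It was higher in gcn5 ts2 than in ts2 by 0.94 (SE 0.17, adjusted p = 0.00015). SDA1 lay at 0.19 and -0.75 in gcn5 ts2, against -1.35 to -0.98 in ts2, a difference of 0.93 (SE 0.15, adjusted p = 5e-05). RRP5 lay at -0.01 and -0.26 in gcn5 ts2, against -1.16 to -0.94 in ts2, a difference of 0.93 (SE 0.14, adjusted p = 1.4e-05). In each of these genes both gcn5 ts2 arrays lay above all ts2 arrays.

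NOP15, an RNA-binding assembly factor of the large subunit, lay at 0.94 and 0.39 in gcn5 ts2, against -1.11 to 0.02 in ts2, a difference of 1.07 (SE 0.26, adjusted p = 0.0037). DBP2 lay at 0.31 and -1.16 in gcn5 ts2, against -2.17 to -0.79 in ts2, a difference of 1.14 (SE 0.26, adjusted p = 0.0018). DBP2 array B lay within the range of ts2, while NOP15 did not overlap. The 7 calls that held whichever array was left out were those of BRX1, DBP9, NOC2, NOP12, RRP12, RRP5 and UTP13.

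RRP12, an export factor for both subunits, had the largest difference, 1.36 (SE 0.26, adjusted p = 0.00026), and it needs its slide run beside it. It lay at 1.25 and 1.33 in gcn5 ts2, and in ts2 at 0.81 and 0.52 on arrays A and D of the same run, and at -0.72 to -0.01 on the other 4 arrays. Within run 2 the difference was 0.63 (adjusted p = 0.021).

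The 28 genes that were not called between gcn5 ts2 and ts2 included the 3 box H/ACA genes. CBF5 lay at -0.56 and -0.73 in gcn5 ts2, against -0.99 to -0.69 in ts2, a difference of 0.17 that did not pass. GAR1 lay at -0.89 and -1.35 in gcn5 ts2, against -1.64 to -0.96 in ts2, and NHP2 at -0.44 and -0.86, against -1.77 to -0.68. Neither difference passed. KRR1 lay at -1.03 and -1.47 in gcn5 ts2, against -1.81 to -1.25 in ts2, and was not called either. Whether the roles differ in this respect was not tested.

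Against WT, 6 of the genes that fell in ts2 were higher in gcn5 ts2, namely UTP13, DBP7, DBP10, NOP2, NOP15 and BRX1. DBP7, DBP10, NOP2 and BRX1 turned to -0.22 to -0.11 in gcn5 ts2 on the deposited scale. DBP7 and BRX1 did not pass in gcn5 ts2 against the mean of the WT arrays (adjusted p = 0.0968 and 0.0831), nor did UTP13 and NOP15 in ts2. Another 26 genes that fell in ts2 were not called in gcn5 ts2 against WT. How many of all genes behaved in either way was not counted. Of the 156 other pathway genes, 66 were higher and 3 lower in gcn5 ts2 than in ts2, led by other small subunit factors with 25 of 34 higher.

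**Figure D4:**
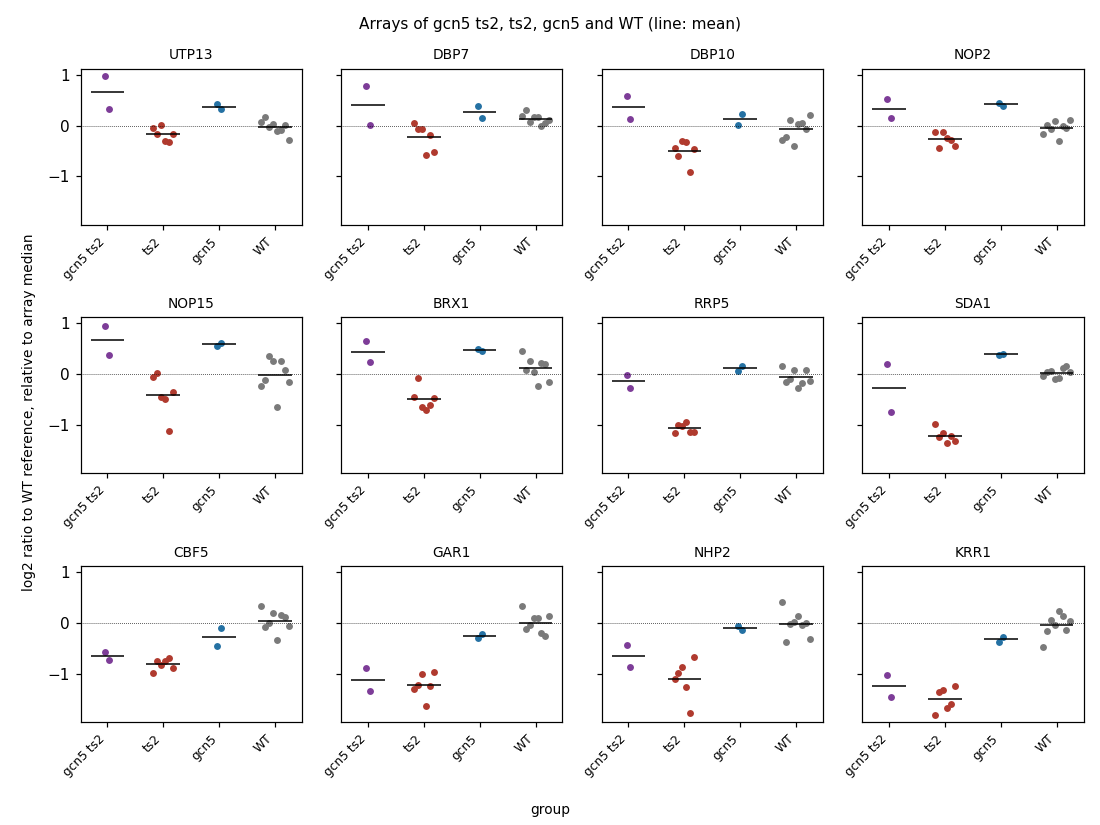
Log2 ratio to the WT reference, relative to the array median, of 12 genes on each array of gcn5 ts2, ts2, gcn5 and WT, with the mean as a line. RRP5 lies at -0.01 and -0.26 in gcn5 ts2 against -1.16 to -0.94 in ts2, while GAR1 lies at -0.89 and -1.35 against -1.64 to -0.96.

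The interaction of gcn5 and ts2, that is the double mutant less ts2 less gcn5, asked whether the effects departed from a sum. The median was 0.39 over the 60 genes. A single gene was called, RRP5 at 0.81 (SE 0.18, adjusted p = 0.021), where 0.939% of all genes were called, and 17 of the 60 had an unadjusted limma p under 0.05. The call of RRP5 was lost without any 1 of the gcn5 or gcn5 ts2 arrays, within slide run 2 and with run as a block, and it was 0.75 (adjusted p = 0.0652) with the WT arrays as the zero level. The median on the deposited scale was -0.021, with no gene called.

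In esa1 ts2, 7 genes were lower than in ts2 and 1 higher (10.1% and 13.5% of all genes), with a median of -0.21. Both esa1 ts2 arrays lay below all ts2 arrays in 10 of 59 genes (14.2% of all genes) and above all of them in 3 (17.3%). MAK21 lay at -2.13 and -2.11 in esa1 ts2, against -1.65 to -0.62 in ts2 and 0.06 and -0.14 in esa1, and was lower by 1.01 than in ts2 (SE 0.19, adjusted p = 0.00025). UTP13 lay at -0.51 and -0.86 in esa1 ts2, against -0.31 to 0.01 in ts2, and was lower by 0.53 (SE 0.10, adjusted p = 0.0005). MAK5 lay at 2.19 and 1.98 in esa1 ts2, against 1.0 to 1.75 in ts2, and was higher by 0.74 (SE 0.13, adjusted p = 0.00024). On the deposited scale the MAK5 difference was 0.09 (adjusted p = 0.903). None of these 3 overlapped, and these were the calls that held whichever array was left out.

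The other 5 lower genes were NOP15 (-0.74), NOC3 (-0.51), NOP2 (-0.44), EBP2 (-0.44) and DBP9 (-0.36). None of the 8 was called on the deposited scale. Without array A of esa1 ts2 3 genes were called, and likewise 3 without array B. The interaction had 1 call (4.72% of all genes), MAK21 at -0.97 (SE 0.24, adjusted p = 0.017), which was lost without any 1 of the esa1 or esa1 ts2 arrays.

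Few members were called in the remaining double mutants against ts2. Their array medians lay at -0.61 to -0.27, against -0.63 to -0.43 in ts2. Calls numbered 5 in elp3 ts2 (10% of all genes), 5 in hpa2 ts2 (6.54%), 3 in hat1 ts2 (4.65%) and 0 in sas3 ts2 (0.127%), where 4 genes had an unadjusted limma p under 0.05. In elp3 ts2, GAR1 (0.69), DBP2 (0.85) and UTP4 (0.44) were higher and UTP21 (-0.57) and MAK5 (-1.59) lower. In hat1 ts2, KRR1 (0.67) and REA1 (0.73) were higher and MAK5 (-0.60) lower.

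In hpa2 ts2, NOG2 was higher by 1.24 than in ts2, from arrays at 0.14 and 1.26, against -0.73 to -0.26 in ts2. ERB1 was lower by 1.55, from arrays at -0.74 and -3.83, and without array B its difference was -0.01. MAK21 was lower by 0.85 and UTP20 higher by 0.56. Without array A of hpa2 ts2 10 genes were called against ts2. Of the calls of elp3 ts2, hat1 ts2 and hpa2 ts2 against ts2, those of MAK5 in elp3 ts2 and hpa2 ts2 held whichever array was left out, and no other did.

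MAK5 was high in the strains with ts2 of slide runs 2 to 4 and not in those of run 1. It lay at 1.63 and 1.59 in gcn5 ts2, 2.19 and 1.98 in esa1 ts2, 1.45 and 1.19 in sas3 ts2 and 0.68 and 0.79 in hat1 ts2, but at -0.09 and -0.41 in elp3 ts2 and -0.07 and -0.27 in hpa2 ts2. The WT arrays lay at -0.14 to 0.16 and the ts2 arrays at 1.0 to 1.75. Strains also differed within a run, as the arrays of hat1 ts2 and sas3 ts2 all lie in run 4. All 4 arrays of elp3 ts2 and hpa2 ts2 belong to run 1, in which no ts2 array lies, so strain and run cannot be told apart for MAK5. The differences from ts2 were -1.59 (SE 0.13, adjusted p = 1.5e-08) in elp3 ts2 and -1.51 (SE 0.13, adjusted p = 6.7e-08) in hpa2 ts2, and with run as a block they were -1.68 and -1.60.

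The same 4 arrays lay at -2.26 to -0.83 for MAK21, against -0.26 to 0.08 in WT. BMS1 also differed between runs in the strains with ts2. It lay at 2.14 and 2.52 in esa1 ts2, 2.11 and 1.47 in sas3 ts2 and 1.62 and 1.33 in hat1 ts2, which lie in runs 3 and 4, and at -1.03 and 0.40 in gcn5 ts2, -1.70 and 0.33 in elp3 ts2 and -2.45 on the measured hpa2 ts2 array, in runs 2 and 1. DBP3 lay at -0.67 and -1.20 in gcn5 ts2, in run 2, and at -0.53 to 0.97 in the other double mutants. What the runs had in common beside their slide numbers is not given in the sources used here, and their part in these values was not tested.

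**Figure D5:**
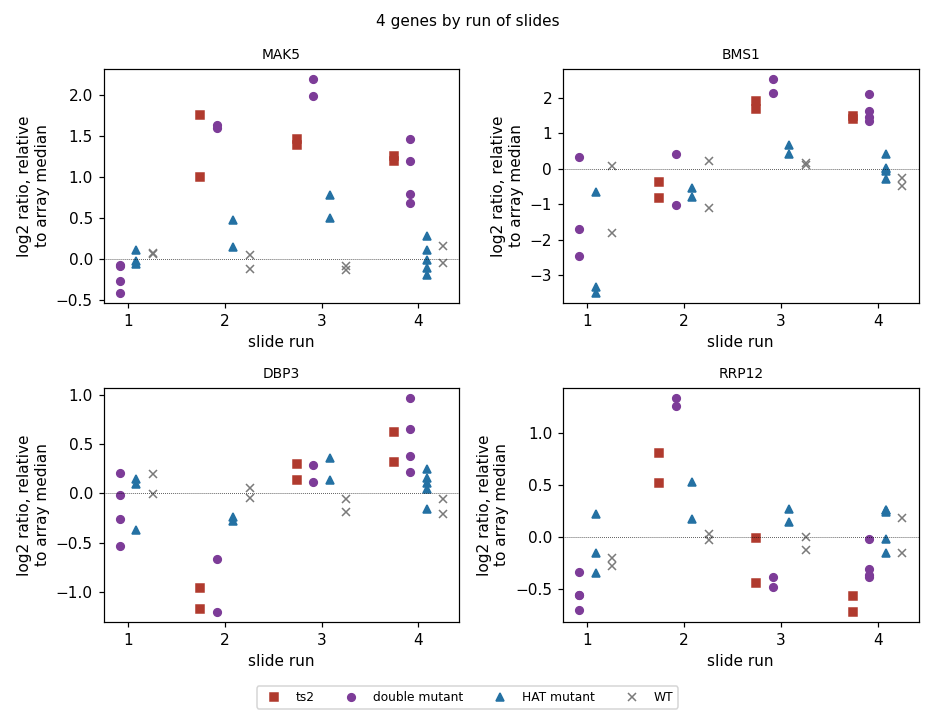
Log2 ratio to the WT reference, relative to the array median, of MAK5, BMS1, DBP3 and RRP12 on each array, by run of slide numbers (1 to 4) and by kind of strain. MAK5 is high (0.68 to 2.19) in strains with ts2 in runs 2 to 4 and not in run 1 (-0.41 to -0.07), BMS1 in strains with ts2 is at 1.33 or above in runs 3 and 4 and at 0.40 or below in runs 1 and 2, and the ts2 arrays of run 2 differ from those of runs 3 and 4 in BMS1, DBP3 and RRP12.

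The elp3 interaction was called for MAK5 (-1.61 ± 0.18 SE) and UTP20 (0.86 ± 0.19), 2 genes where 0.653% of all genes were called. The hpa2 interaction was called for MAK5 (-1.40 ± 0.18) and NOG2 (1.5 ± 0.36), where 1.83% of all genes were. None of the 60 was called in the hat1 and sas3 interactions (0.242% and 0% of all genes), where 8 and 2 had an unadjusted limma p under 0.05. On the deposited scale no member was called in any of these interactions. With the WT arrays as the zero level UTP20 (adjusted p = 0.0685) and NOG2 (adjusted p = 0.0717) did not pass, and both MAK5 calls did.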

How the data were processed

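PolyA RNA ratios of 38 two-colour arrays were analysed. Per the labels, each array set a test strain against the WT strain in the other dye, and the deposited values are linear ratios of test over WT, some of them below 0. Per the series' design text, dye-swapped data were mode-normalized and corrected by spiked B. subtilis RNA. Whether the deposited ratios come before or after those steps, and the image analysis used, is not given in the sources used here. Ratios at or below 0 (0.752 to 4.229% of spots per array) were set as missing, log2 was taken with no pseudocount, each array was centred on its median, and spots of a gene were averaged, which left 5548 named genes of 7056 spots.

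Groups were compared with limma 3.58.1 in R 4.3.3, with a dye term, the WT reference channel as the zero level (the 8 WT arrays adding only to the residual spread and the dye term), 24 residual degrees of freedom and Benjamini-Hochberg adjustment over all genes tested in each comparison (threshold 0.05). A gene needed values on 4 of the 6 ts2 arrays, on 6 of the 8 WT arrays and on both arrays of any smaller group. Any of the 60 members could be named, with at most the 3 called genes of each pathway list that changed most in ts2. The neighbours BMT2 and SUP45 were named after their values were seen. Members and lists were chosen with earlier results of these data known. The model was checked on simulated data. Alternatives were the deposited scale without centring, no dye term, no WT dye signs, averaged dye swaps, slide and slide run as blocks, single slide runs, the array letter as a block, each array left out, and, chosen after seeing the data, the WT arrays as a group of their own whose mean was subtracted. The dye signs of WT arrays were read from the other array of the slide or, for 1 array, from its letter. The number of arrays limits the precision, and no sequence was used.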

Additional observations from a re-analysis of the deposited data

Results flagged for a closer look

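Among the 122 sets of ts2 or WT arrays examined for a single array far from the rest (Dixon's test), 13 stood out, 3 in ts2 and 10 in WT. Chance marks about 1 set in 20. In ts2 these were NOP14 at 3.21 on array F, NOP4 at -2.36 on array B and NOP16 at -1.36 on array E, where the other 5 arrays of NOP16 lay at -0.36 to -0.16. In WT, array A stood apart in SSF1 (-1.22), EBP2 (0.53) and UTP21 (-0.27), array D in NOP53 (-1.25), array E in NOP56 (1.83) and REA1 (-0.46), array G in NOG1 (1.11), and array H in NOC4 (1.17), UTP7 (0.38) and ROK1 (-0.10).

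The interaction term of ts2 with a HAT mutation was called for 6 gene and mutant pairs (limma adjusted p under 0.05). With elp3 these were MAK5 at -1.61 and UTP20 at 0.86, with hpa2 MAK5 at -1.40 and NOG2 at 1.5, with esa1 MAK21 at -0.97, and with gcn5 RRP5 at 0.81. The MAK5 values held whichever array was left out, and also with the mean of the WT arrays subtracted, where UTP20 (0.84), NOG2 (1.41) and RRP5 (0.75) did not pass. The 4 calls other than those of MAK5 were each lost without at least 3 of the arrays in turn. On the deposited scale none of the 6 was called. The elp3 ts2 and hpa2 ts2 arrays all lie in run 1, which holds no ts2 array. Strain and run cannot be told apart there, and leaving out an array does not part them.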

How the results depend on the processing

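The median change of the 60 genes in ts2 was below 0 under every alternative run. With each array left out in turn, 44 to 48 members were called. Of the 48 members called with all arrays, 40 stayed called whichever array was left out. Counts from groups of 2 arrays moved more, and the cause was not tested. With the array letter as a replicate block, 18 members were called between gcn5 ts2 and ts2, 5 between esa1 ts2 and ts2, 2 in gcn5, 1 each in elp3 ts2 and hat1 ts2 against ts2 and in the elp3 and hpa2 interactions, 0 in elp3, hat1 and the gcn5 interaction, and the hat1 ts2 median was -0.51. The letters share only a letter: 38 of 66 pairs of groups had correlated deviations over 0.1 (-0.134 to 0.57), and in groups of 2 the letter follows the dye. On the deposited scale the medians against WT were -0.85 in ts2, 0.78 in elp3, -0.58 in esa1, 0.36 in gcn5, 0.48 in hat1, 0.041 in hpa2, 0.25 in sas3, -1.69 in esa1 ts2, -0.57 in gcn5 ts2, -0.093 in hat1 ts2 and -0.67 in sas3 ts2. Against ts2 they were 0.48 in elp3 ts2, -0.86 in esa1 ts2, 0.31 in gcn5 ts2, 0.74 in hat1 ts2, 0.36 in hpa2 ts2 and 0.19 in sas3 ts2. The interaction medians were -0.32 for elp3, -0.25 for esa1, -0.021 for gcn5, 0.27 for hat1 and 0.31 for hpa2. On this scale the shift of each whole array stays in the medians and counts, so they are not changes of the 60 genes alone. The median deposited ratios were 2.40 and 1.15 on the elp3 arrays and 0.733 and 0.347 on the esa1 ts2 arrays. The counts there were 1 in elp3 ts2 and in hat1 ts2, 3 in hpa2 ts2, 9 in sas3 ts2 and 11 in gcn5 ts2 against WT, and 0 in esa1, gcn5 and hat1, in the elp3, esa1, gcn5, hat1 and hpa2 double mutants against ts2 and in their interactions. Reversed there were NOP12 (-0.14) and UTP15 (-0.16) in ts2, BRX1 (-0.11), DBP10 (-0.19), DBP7 (-0.16), NOP2 (-0.22) and UTP18 (-0.12) in gcn5 ts2, and MAK5 in hat1 ts2 against ts2 (0.0245). Within run 2 BMS1 reversed in ts2 (-0.59). With the WT arrays as a group of their own, chosen after seeing the data, counts were 42 in ts2, 5 in gcn5, 1 each in the elp3 and hpa2 interactions and 0 in that of gcn5. With dye swaps averaged, counts were 4 in esa1 ts2, 2 in hpa2 ts2, 1 in elp3 ts2 and 0 in hat1 ts2 against ts2, 2 in gcn5, 0 in elp3 and hat1, 1 in the elp3 interaction and 0 in those of esa1 and gcn5. Without WT dye signs the elp3 and hat1 interactions had 1 each. Without a dye term gcn5 had 5, esa1 ts2 4, elp3 ts2 2 and hat1 ts2 1 against ts2, and the elp3 interaction 1. With slides as random blocks the esa1 and gcn5 interactions had 3 each and hat1 1. With run as a block the counts were 16 in gcn5 ts2, 7 in esa1 and 0 in elp3, gcn5 and hat1 against WT, 3 in esa1 ts2, 2 in hpa2 ts2, 1 in elp3 ts2 and 0 in hat1 ts2 against ts2, and 1 and 0 in the elp3 and gcn5 interactions. Within single runs esa1 had 21, and elp3, hat1, hat1 ts2 against ts2 and the gcn5 interaction 0. With each array left out, counts against WT ranged over 15 to 32 in elp3 ts2, 15 to 30 in hat1 ts2, 18 to 35 in hpa2 ts2, 4 to 14 in esa1, 1 to 9 in gcn5 and 0 to 1 in hat1, hpa2 and sas3. Against ts2 they ranged over 7 to 34 in gcn5 ts2, 3 to 10 in esa1 ts2, 1 to 7 in elp3 ts2, 0 to 4 in hat1 ts2 and 2 to 10 in hpa2 ts2. Interactions ranged over 1 to 2 for elp3, 0 to 2 for esa1, 0 to 3 for gcn5, 0 to 1 for hat1 and sas3 and 1 to 8 for hpa2. Medians ranged over -0.50 to -0.36 in elp3 ts2, -0.19 to 0.21 in gcn5 ts2 and -0.56 to -0.27 in hpa2 ts2 against WT, 0.32 to 0.72 in gcn5 ts2 and -0.046 to 0.24 in hpa2 ts2 against ts2, and 0.20 to 0.59, -0.26 to 0.014 and -0.20 to 0.036 in the gcn5, hpa2 and sas3 interactions.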
